A study of Homo sapiens with 54 samples.

Results

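Baseline open chromatin was compared between 2 human cancer cell lines: 3 peak lists of untreated PC3 cells were set against 3 peak lists of untreated MDA-MB-231 cells. The 6 lists were chosen by their labels (cell line and untreated state), and they are 6 of the 18 lists of the series. PC3 is a prostate cancer line taken from a bone metastasis that grows without androgen. MDA-MB-231 is a breast cancer line from a pleural effusion that lacks the usual hormone receptors and has a spindle-shaped, mesenchymal form. Both groups carry the label control, and the labels name no other genotype or agent. The rest of the series is cells of the same lines that survived cisplatin, a DNA-crosslinking drug, taken 1 and 10 days after the drug was removed, with 3 lists at each time and line. Each list stands for 1 biological replicate, which the labels describe as split into 3 experimental samples before tagmentation, so 18 of the 54 sequenced samples lie behind the 6 lists. Each line is a single established line, so a difference here is between these 2 lines and not between prostate and breast.

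ATAC-seq (assay for transposase-accessible chromatin) uses a transposase that cuts and tags DNA where nucleosomes leave it exposed, and a peak is a stretch with more tagged fragments than its surroundings. Starts of active genes tend to be open in most cell types, while distal elements such as enhancers differ most between lineages. Epithelial identity is kept by factors such as the grainyhead-like and OVOL proteins, and the ZEB and SNAI repressors act against it by binding E-box sequences. HOX genes carry the positional identity of a tissue along the body axis, and the prostate is known for its use of posterior HOX genes such as HOXB13.

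PC3 lists held more peaks, and more of them away from genes. The MDA-MB-231 lists 1 to 3 held 98777, 82392 and 87524 peaks on chromosomes 1 to 22 and X, and the PC3 lists held 114731, 113631 and 106577. The groups did not overlap, with 89564 ± 8381 peaks in MDA-MB-231 and 111646 ± 4424 in PC3 (SD, n = 3 each), and the two-sided exact permutation p was 0.1, the smallest that 20 relabellings can give. Covered length, the base pairs under peaks, did overlap: 54.4, 65.8 and 70.9 Mb in MDA-MB-231 and 67.0, 66.4 and 62.1 Mb in PC3 (exact permutation p = 0.8). List 1 of MDA-MB-231 stood apart in shape, with a median peak width of 365 bp against 592 and 587 bp in the others, and the PC3 medians of 435, 455 and 429 bp lay in between. Without read counts the depth behind a list is unknown, and a difference in depth cannot be told apart from one in peak number.

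Where the peaks lay also separated the lines. Peaks at gene ends, meaning at most 1 kb from the start or the end of a protein-coding gene, made up 17.1 ± 0.396% of MDA-MB-231 peaks and 13.2 ± 0.273% of PC3 peaks (SD, n = 3 each). Peaks outside genes made up 38.9 ± 0.101% in MDA-MB-231 and 44.8 ± 0.331% in PC3. The share of covered length in gene-poor windows of 1 Mb, which hold at most 1 protein-coding gene, was 4.43 ± 0.0945% in MDA-MB-231, where no list passed 4.54%, and 9.17 ± 0.471% in PC3, where no list fell under 8.87%. None of these 3 shares overlapped between the lines, each with an exact permutation p of 0.1, the smallest possible. When each list was cut to its 50000 peaks of highest area, which sets the number of peaks equal, the gene-poor share was 3.55 ± 0.262% against 7.08 ± 0.494% and again did not overlap.

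**Figure D1:**
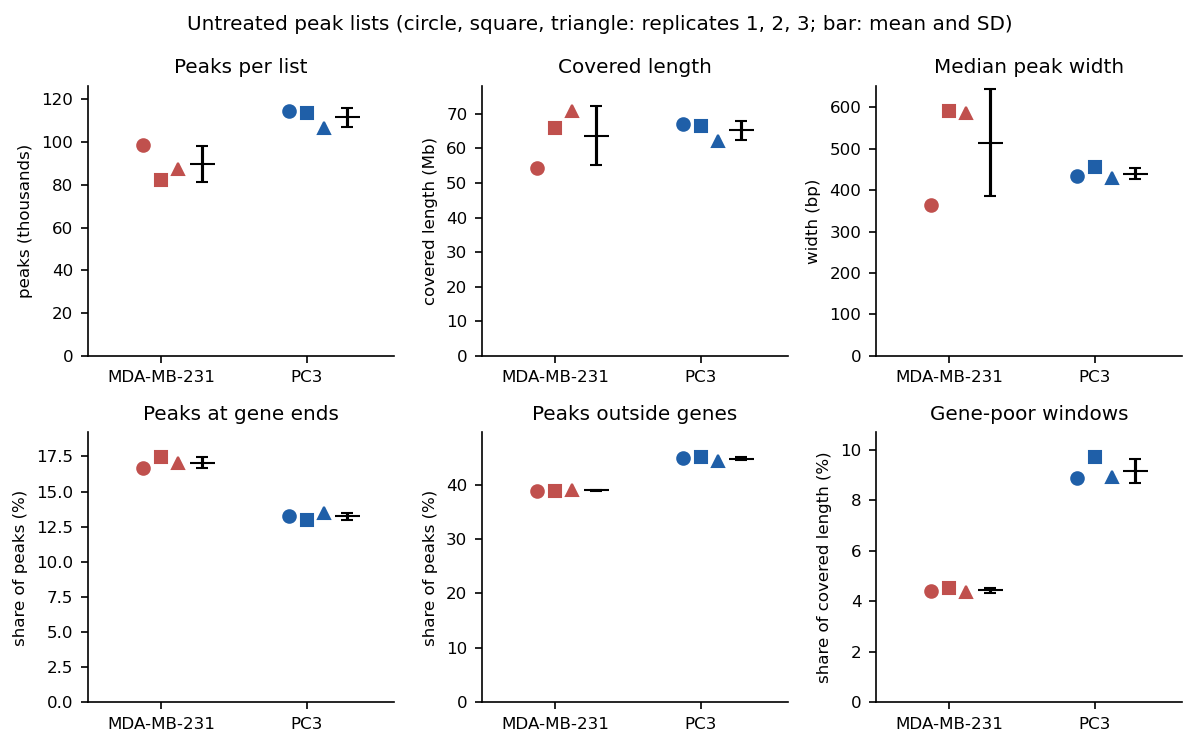
Measures of the untreated lists, with points for replicates 1, 2 and 3 of MDA-MB-231 (red) and PC3 (blue) and the mean with SD beside them (n = 3 each); every axis starts at 0. Peak number and the 3 shares do not overlap between the lines, while covered length and median width do.

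Replicates of 1 line shared far more of their covered length than lists of different lines. The length shared by a pair of lists, as a share of the length covered by either, ran from 68.9% to 83.2% within a line (6 pairs, median 74.8%). Between the lines it ran from 40.5% to 45.5% (9 pairs, median 44.6%). Merging the peaks of the 6 lists gave 155550 regions, of which 52493 (33.7%) had a peak in all 6 lists. A further 31276 regions had a peak in all 3 PC3 lists and in no MDA-MB-231 list (20.1% of regions), and 15058 had the reverse pattern (9.68%). The excess of PC3-only regions was lost when each list was cut to 50000 peaks, which gave 12390 PC3-only and 12354 MDA-MB-231-only regions.

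Line-only regions of both lines lay at gene ends less often than shared ones, and PC3-only regions lay outside genes more often. Only 3.39% of PC3-only regions lay at a gene end and 53.9% lay outside genes. Of the MDA-MB-231-only regions, 8.95% lay at a gene end and 39.0% outside genes, and of the regions in all 6 lists 22.6% and 38.2%. Over every region these shares were 11.1% and 44.7%. Gene bodies held 52.1% of MDA-MB-231-only, 42.7% of PC3-only and 39.2% of shared regions, against 44.2% of every region. Line-only regions were also narrower, with medians of 467 bp in PC3 and 547 bp in MDA-MB-231 against 864 bp for the shared regions. Merging favours this order: a region in all 6 lists joins peaks of more lists, and a wider region is met by more lists. Nothing is concluded from the widths. The treated lists, which had no part in sorting the regions, kept the pattern of the line. PC3-only regions had a peak in 82.7% to 96.2% of cases in the 6 treated PC3 lists and in 11.3% to 26.1% in the 6 treated MDA-MB-231 lists. MDA-MB-231-only regions had a peak in 82.1% to 94.4% of cases in treated MDA-MB-231 lists and in 14.5% to 30.2% in treated PC3 lists.

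Gene starts differed less than distal regions. RefSeq start windows, from 250 bases before to 50 after a start, were listed for 15812 of 19974 protein-coding genes. The other genes, GRHL2 and ESRP1 among them, are missing from every start count. They are not spread evenly over the genome, as given below with the arms, so the balance of line-only starts holds for listed starts only. Of the 15812 genes with a listed start, 9328 (59.0%) had a start peak in all 6 lists and 4949 (31.3%) in none. All 3 PC3 lists and no MDA-MB-231 list had a start peak at 351 genes (2.22%), and 494 genes (3.12%) showed the reverse. In the treated lists, the PC3-only starts had a peak in 89.5% to 99.1% of cases in PC3 and in 11.4% to 19.4% in MDA-MB-231, and the MDA-MB-231-only starts in 5.26% to 10.7% in PC3 and in 86.8% to 97.6% in MDA-MB-231.

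The epithelial gene list held 4 PC3-only starts among its 17 genes with a listed start, and no MDA-MB-231-only start, against 2.22% and 3.12% of all genes with one. These were LAD1, which encodes the anchoring-filament protein ladinin; RAB25, a small GTPase of apical recycling; CRB3, an apical polarity protein; and AP1M2, a subunit of the epithelial sorting adaptor AP-1B. Their windows are printed because each was open in all 3 PC3 lists and in no MDA-MB-231 list. The sequences are from RefSeq on GRCh38.p14, 5′ to 3′, at chr1:201399275-201399574, minus strand (LAD1), chr1:156060910-156061209, plus strand (RAB25), chr19:6464021-6464320, plus strand (CRB3) and chr19:10587263-10587562, minus strand (AP1M2). Capitals mark each match to the E-box CACCTG or its reverse complement, the letters bound by ZEB and SNAI factors.
LAD1: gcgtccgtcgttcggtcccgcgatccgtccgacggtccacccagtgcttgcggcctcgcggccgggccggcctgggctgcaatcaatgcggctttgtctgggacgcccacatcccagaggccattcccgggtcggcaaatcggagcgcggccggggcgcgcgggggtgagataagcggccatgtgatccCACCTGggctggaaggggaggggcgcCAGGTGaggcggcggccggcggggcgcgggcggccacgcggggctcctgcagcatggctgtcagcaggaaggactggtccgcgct
RAB25: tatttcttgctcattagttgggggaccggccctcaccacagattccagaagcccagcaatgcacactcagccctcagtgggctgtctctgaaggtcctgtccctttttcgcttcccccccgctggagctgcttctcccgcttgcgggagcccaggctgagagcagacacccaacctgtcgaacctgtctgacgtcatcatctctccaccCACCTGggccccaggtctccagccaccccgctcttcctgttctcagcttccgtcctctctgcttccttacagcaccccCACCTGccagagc
CRB3: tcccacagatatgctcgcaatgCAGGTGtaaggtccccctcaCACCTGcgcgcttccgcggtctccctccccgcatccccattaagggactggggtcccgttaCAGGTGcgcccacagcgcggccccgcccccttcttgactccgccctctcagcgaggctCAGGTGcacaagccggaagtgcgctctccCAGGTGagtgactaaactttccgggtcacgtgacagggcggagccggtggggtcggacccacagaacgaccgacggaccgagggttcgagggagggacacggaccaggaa
AP1M2: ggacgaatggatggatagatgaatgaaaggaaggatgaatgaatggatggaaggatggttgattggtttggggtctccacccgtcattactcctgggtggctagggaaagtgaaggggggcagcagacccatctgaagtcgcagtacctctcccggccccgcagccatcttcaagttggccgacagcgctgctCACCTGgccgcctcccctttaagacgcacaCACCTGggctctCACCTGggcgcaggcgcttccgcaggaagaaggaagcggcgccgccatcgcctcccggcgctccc

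All 4 windows held the E-box, with 2 matches in LAD1, 2 in RAB25, 5 in CRB3 and 3 in AP1M2. Over 22012 start windows of this length 20.0% held it, with 24.1% of the 493 PC3-only starts, 19.2% of the 812 MDA-MB-231-only starts and 18.1% of starts open in all 6 lists. A match is a description of letters and not of binding. In the treated lists, LAD1 and RAB25 had a start peak in 6 of 6 PC3 lists and in no MDA-MB-231 list. CRB3 had one in 6 treated PC3 and 4 treated MDA-MB-231 lists, and AP1M2 in 3 and in none.

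The interferon-stimulated list held 2 MDA-MB-231-only starts and no PC3-only start among 22, against 3.12% and 2.22% of all genes with a listed start, too few to read a direction from. They belong to BST2, which encodes the antiviral surface protein tetherin, and XAF1, an interferon-induced promoter of cell death. Their windows follow, at chr19:17405581-17405880, minus strand (BST2) and chr17:6755796-6756095, plus strand (XAF1), with capitals at each match to AANNGAAA or its reverse complement, letters found in the sites of interferon regulatory factors.
BST2: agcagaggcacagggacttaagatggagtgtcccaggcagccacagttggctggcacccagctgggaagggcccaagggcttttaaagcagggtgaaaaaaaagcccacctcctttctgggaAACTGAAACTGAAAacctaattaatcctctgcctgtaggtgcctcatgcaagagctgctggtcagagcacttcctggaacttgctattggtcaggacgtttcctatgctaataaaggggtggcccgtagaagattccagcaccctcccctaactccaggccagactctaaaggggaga
XAF1: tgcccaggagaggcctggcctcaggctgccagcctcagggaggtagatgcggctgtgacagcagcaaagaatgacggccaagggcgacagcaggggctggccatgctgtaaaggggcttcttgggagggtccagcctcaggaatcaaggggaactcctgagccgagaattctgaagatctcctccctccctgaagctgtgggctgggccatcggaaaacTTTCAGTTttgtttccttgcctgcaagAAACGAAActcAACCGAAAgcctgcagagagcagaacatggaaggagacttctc

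BST2 held 2 overlapping matches and XAF1 held 3. The letters were in 18.5% of MDA-MB-231-only starts, 22.3% of PC3-only starts and 19.3% of all starts. Both starts had a peak in 6 of 6 treated MDA-MB-231 lists, and in 3 (BST2) and 0 (XAF1) of the 6 treated PC3 lists.

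The widest line-only regions that touch a gene start were several kb long. In PC3 the widest was 4121 bp at ABTB3 (chr12:107317746-107321866, hg38), followed by STC2, KCNMA1, HOXA10, PKP1, WNT7A, CDKN2A, SCN8A, GHR and NRXN3, down to 2429 bp. In MDA-MB-231 the widest was 10001 bp at EGFL7 (chr9:136660299-136670299, hg38), followed by CIC, FGFR3, IL18BP, TSPAN14, TEKTIP1, FAM83G, CYBA, SMIM24 and SPATA13, down to 2910 bp. All of these genes except SPATA13 differed in covered length in the fit described next. That fit counts the same base pairs of the same lists, so these differences follow largely from the choice of genes and give no separate support. STC2 encodes the secreted stanniocalcin-2, PKP1 a desmosomal plakophilin and WNT7A a WNT ligand. EGFL7 encodes a secreted factor known from vessels, FGFR3 a fibroblast growth factor receptor and CYBA a subunit of the NADPH oxidase.

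Covered length per gene was then compared: the base pairs under peaks in a window made of the gene body plus 10 kb flanks, with each list scaled to a common total. For WNT7A this was 1.05, 0.654 and 0.959 kb in MDA-MB-231 and 10.4, 10.4 and 10.7 kb in PC3 (log2 difference 3.00 ± 0.12 (SE), adjusted p = 1.2e-12, limma with Benjamini-Hochberg adjustment). For PKP1 it was 3.27, 3.38 and 3.34 kb in MDA-MB-231 and 15.5, 15.6 and 18.3 kb in PC3 (log2 difference 2.14 ± 0.10 (SE), adjusted p = 7.6e-12). For FGFR3 it was 9.45, 13.505 and 17.7 kb in MDA-MB-231 and 0.733, 0.721 and 0.776 kb in PC3 (log2 difference -3.46 ± 0.21 (SE), adjusted p = 3.7e-10). The lists of the 2 lines did not overlap at any of these 3 genes. Each was picked for a line-only region of the same lists that lies in its window, so its p-value gives no separate support.

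Of 16817 genes with enough covered length to test, 3538 were higher in PC3 (21.0%) and 7438 higher in MDA-MB-231 (44.2%) at an adjusted p under 0.05. The lists of the lines did not overlap at 95.9% of the first and 96.7% of the second. The direction of this split rests on the scaling. The median gene differed by -0.20 on the log2 scale (PC3 minus MDA-MB-231). Scaling the lists by the median of ratios over genes moves that median to 0.00 and gives 5087 genes higher in PC3 (30.2%) and 4931 higher in MDA-MB-231 (29.3%). The share of calls that are higher in PC3 moves from 32.2% to 50.8%. Log2 differences below are on the first scale (covered length + 500 bp), with the median gene at -0.20. The treated lists repeated the direction: of genes called higher in PC3, 93.7% were higher in PC3 at day 1 and 89.3% at day 10, and of genes called higher in MDA-MB-231, 97.4% and 95.1% were higher there. On this scale the median gene was also below 0 in the treated lists (-0.22 at day 1, -0.25 at day 10), which favours the MDA-MB-231 shares. The treated lists also entered the filter and the spread of the fit. The share of all tested genes with each direction was not counted. Gene windows overlap, so neighbouring genes share peaks and their calls are not independent.

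**Figure D2:**
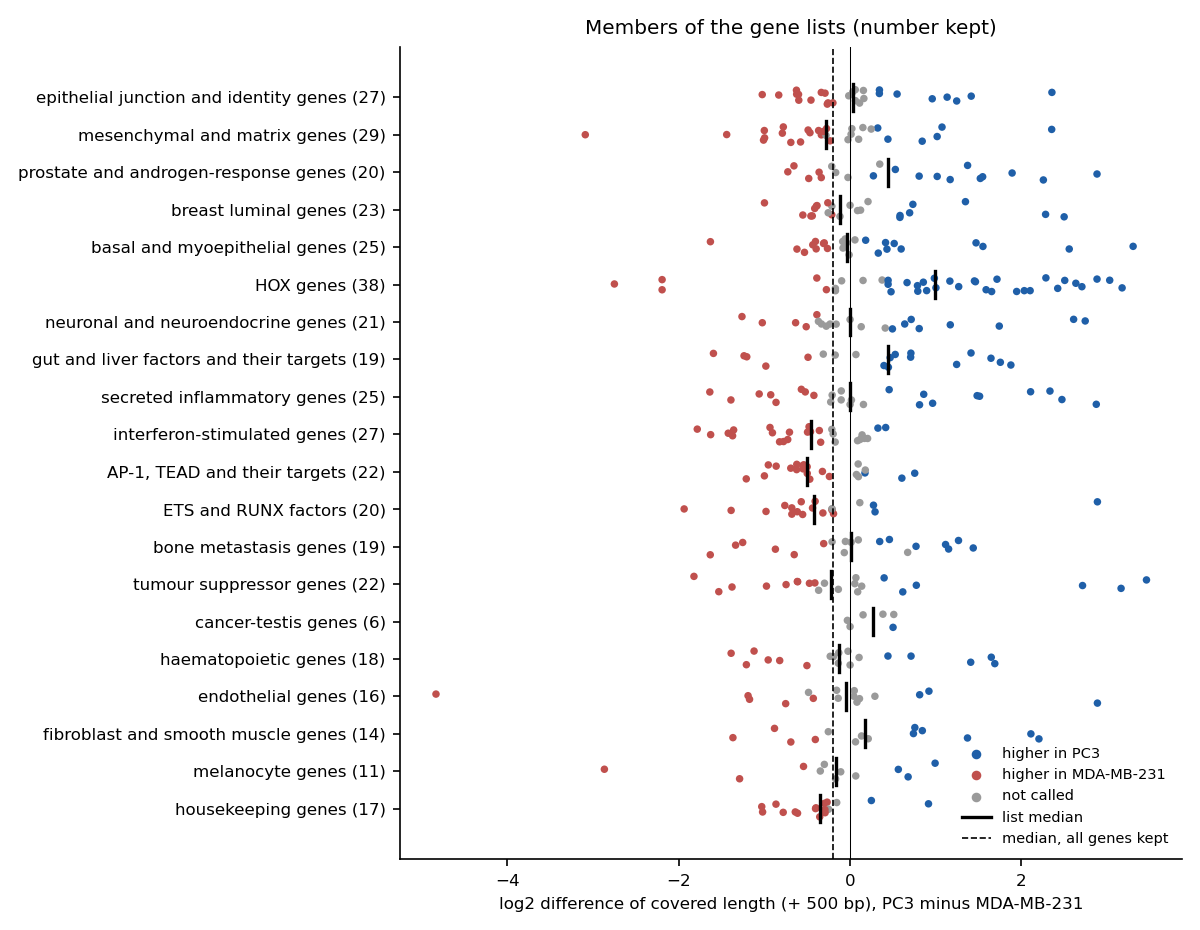
Log2 difference of covered length (PC3 minus MDA-MB-231, on covered length + 500 bp) for each member of the 20 gene lists, coloured by call, with the list median as a bar and the median of all 16817 genes as a dashed line at -0.20. HOX genes lie furthest to the right, with a median of 0.99, and the AP-1 and TEAD list furthest to the left, with a median of -0.50.

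Epithelial genes were split, with LAD1 and the regulators GRHL2 and ESRP1 more open in PC3 and others more open in MDA-MB-231. Of 30 epithelial junction and identity genes, 27 were tested: 8 were higher in PC3, 12 higher in MDA-MB-231 and 7 passed no test, against 21.0% and 44.2% of all genes. With median-of-ratios scaling these counts became 13 and 7, against 30.2% and 29.3% of all genes. The list's median was 0.03, against -0.20 over all genes. LAD1 had 2.61, 2.84 and 4.32 kb in MDA-MB-231 and 18.8, 16.0 and 20.7 kb in PC3 (log2 difference 2.36 ± 0.13 (SE), adjusted p = 1.4e-10). GRHL2, a grainyhead-like factor that maintains epithelial genes, had 4.94, 6.75 and 5.43 kb in MDA-MB-231 and 15.0, 16.4 and 16.4 kb in PC3 (log2 difference 1.41 ± 0.10 (SE), adjusted p = 1.1e-09). ESRP1, a regulator of epithelial splicing, had 2.90, 2.46 and 3.04 kb in MDA-MB-231 and 6.59, 6.65 and 6.94 kb in PC3 (log2 difference 1.13 ± 0.08 (SE), adjusted p = 1.5e-09). All 3 lists of PC3 lay above all 3 of MDA-MB-231 at these genes.

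Not every epithelial gene followed. CDH1, which encodes E-cadherin, had 8.24, 8.31 and 7.57 kb in MDA-MB-231 and 10.5, 10.4 and 9.96 kb in PC3, a small difference of 0.34 (adjusted p = 0.00026) that grew to 0.57 with median-of-ratios scaling. EPCAM, an epithelial surface adhesion molecule, had 2.57, 2.23 and 2.22 kb in MDA-MB-231 and 2.40, 2.71 and 2.58 kb in PC3 and passed no test (adjusted p = 0.42), but was called higher in PC3 with median-of-ratios scaling (adjusted p = 0.029). TJP3, a tight-junction scaffold, was higher in MDA-MB-231, with 9.09, 9.49 and 9.06 kb in MDA-MB-231 and 4.95, 4.19 and 3.74 kb in PC3 (log2 difference -1.03 ± 0.12 (SE), adjusted p = 5.8e-07). CLDN4, a claudin, differed by -0.26 (adjusted p = 0.012) and lost its call with median-of-ratios scaling (adjusted p = 0.82). The start of AP1M2 was PC3-only, yet its window held 7.91, 7.55 and 7.70 kb in MDA-MB-231 and 5.103, 4.66 and 4.99 kb in PC3, and was higher in MDA-MB-231 (log2 difference -0.60 ± 0.08 (SE), adjusted p = 4.3e-06), a call lost with arms centred (adjusted p = 0.63). CRB3 and RAB25, also with PC3-only starts, differed by 0.16 each and passed no test (adjusted p = 0.195 and 0.076), and both were called higher in PC3 with median-of-ratios scaling. CLDN7 had no covered base in any list of either line.

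Mesenchymal and matrix genes were more often higher in MDA-MB-231, in proportions close to those of all genes. Of 32 genes 29 were tested, with 6 higher in PC3 (20.7%) and 16 higher in MDA-MB-231 (55.2%), against 21.0% and 44.2% of all genes. Under median-of-ratios scaling 9 and 10 were, against 30.2% and 29.3%. The median on the first scale was -0.28, against -0.20 for all genes. MMP2, a matrix metalloproteinase, had 4.35, 4.31 and 2.82 kb in MDA-MB-231 and 0 kb in the 3 PC3 lists (adjusted p = 3e-09). AXL, a receptor tyrosine kinase tied to the mesenchymal state, had 24.1, 20.0 and 23.5 kb in MDA-MB-231 and 8.23, 6.67 and 9.17 kb in PC3 (log2 difference -1.44 ± 0.10 (SE), adjusted p = 1.3e-09). VIM, the intermediate filament vimentin, had 6.93, 6.40 and 6.04 kb in MDA-MB-231 and 2.83, 2.98 and 3.11 kb in PC3 (log2 difference -1.001 ± 0.07 (SE), adjusted p = 2.9e-09). The lists did not overlap at these genes, and the difference held its direction and call with both other scalings.

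Some mesenchymal genes went the other way. TWIST1, a mesenchymal transcription factor, had 0 kb in the 3 MDA-MB-231 lists and 2.03, 1.98 and 2.16 kb in PC3 (adjusted p = 1e-10). CDH2, which encodes N-cadherin, had 4.32, 3.54 and 3.47 kb in MDA-MB-231 and 8.45, 8.19 and 7.72 kb in PC3 (log2 difference 1.02 ± 0.12 (SE), adjusted p = 1.4e-06), with a start peak in all 3 PC3 lists and no MDA-MB-231 list. ZEB1, the repressor of epithelial genes, was open at its start in all 6 lists, and its window differed by -0.31 (adjusted p = 0.017). That difference was 0.060 once each chromosome arm was centred on its median, and passed no test there (adjusted p = 0.6). FN1, fibronectin, and SPARC, a matrix glycoprotein, differed by 0.10 and -0.28 and passed no test (adjusted p = 0.28 and 0.074), though FN1 was called higher in PC3 with median-of-ratios scaling (adjusted p = 0.0011). With 50000 peaks per list SPARC was called higher in MDA-MB-231 (-1.11, adjusted p = 0.0020).

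**Figure D3:**
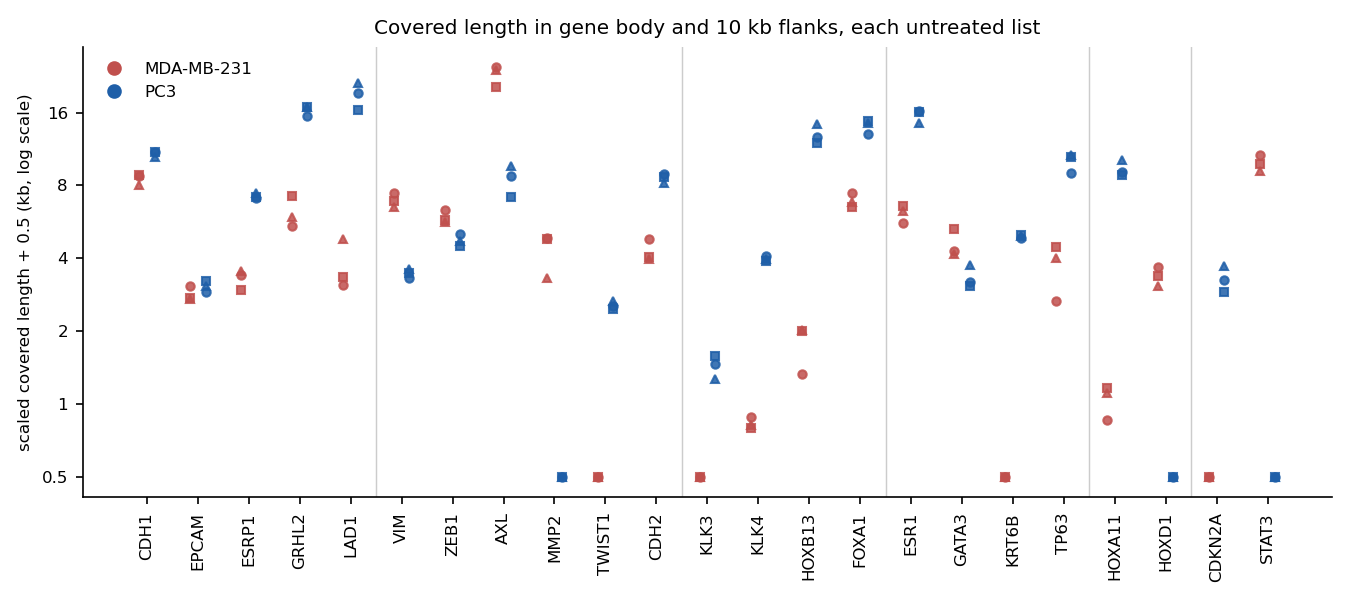
Scaled covered length per gene (gene body and 10 kb flanks, kb + 0.5, log axis) in each untreated list of MDA-MB-231 (red) and PC3 (blue); symbols mark replicates 1, 2 and 3 as circle, square and triangle, and grey lines separate epithelial, mesenchymal, prostate, breast and basal, HOX, and other genes. Points at 0.5 are lists with no covered base, as for MMP2, HOXD1 and STAT3 in PC3 and TWIST1, KLK3, KRT6B and CDKN2A in MDA-MB-231.

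Prostate and androgen-response genes were more often higher in PC3 than in MDA-MB-231. All 20 were tested: 11 were higher in PC3, 5 higher in MDA-MB-231 and 4 passed no test, against 21.0% and 44.2% of all genes. Median-of-ratios scaling gave 11 and 3, against 30.2% and 29.3%, and the median was 0.44 against -0.20 for all genes. HOXB13, the homeobox factor that marks the prostate lineage, had 0.838, 1.50 and 1.53 kb in MDA-MB-231 and 12.2, 11.5 and 13.8 kb in PC3 (log2 difference 2.88 ± 0.20 (SE), adjusted p = 1.8e-09). FOXA1, a pioneer transcription factor of hormone-responsive tissues, had 6.97, 6.03 and 6.36 kb in MDA-MB-231 and 12.5, 14.2 and 14.0 kb in PC3 (log2 difference 1.02 ± 0.08 (SE), adjusted p = 1.3e-08). These are differences in accessible length, and no expression was measured.

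The kallikrein genes, classic androgen targets that lie side by side, had little covered length in PC3 and almost none in MDA-MB-231. KLK4 had 0.383, 0.295 and 0.321 kb in MDA-MB-231 and 3.58, 3.38 and 3.47 kb in PC3 (log2 difference 2.26 ± 0.09 (SE), adjusted p = 2.5e-12). KLK3, which encodes prostate-specific antigen, had 0 kb in the 3 MDA-MB-231 lists and 0.969, 1.08 and 0.775 kb in PC3 (adjusted p = 1.8e-07), and its start had no peak in any of the 18 lists. KLK2 had 0 kb in the 3 MDA-MB-231 lists and 1.87, 1.77 and 0.0811 kb in PC3 (adjusted p = 0.00069), and list 3 of PC3 lay close to MDA-MB-231. ACP3, prostatic acid phosphatase, had 0.515, 0.241 and 0.435 kb in MDA-MB-231 and 3.03, 2.71 and 2.67 kb in PC3 (log2 difference 1.89 ± 0.15 (SE), adjusted p = 1.2e-08) and a PC3-only start. Markers of the lineage did not all follow: TMPRSS2, an androgen-regulated protease, was higher in MDA-MB-231 at 5.50, 5.14 and 4.61 kb in MDA-MB-231 and 2.68, 3.21 and 2.73 kb in PC3 (log2 difference -0.73 ± 0.12 (SE), adjusted p = 3.5e-05). With 50000 peaks per list KLK3 and TMPRSS2 lost their calls (adjusted p = 0.37 and 0.36).

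Breast luminal genes gave no common direction. Of 24 genes 23 were tested, with 7 higher in PC3 (30.4%) and 9 higher in MDA-MB-231 (39.1%), against 21.0% and 44.2% of all genes. With median-of-ratios scaling the counts were 10 and 3, against 30.2% and 29.3%, and the median on the first scale was -0.12. ESR1, the oestrogen receptor, was more open in PC3 at 5.12, 6.09 and 5.78 kb in MDA-MB-231 and 15.8, 15.7 and 14.0 kb in PC3 (log2 difference 1.35 ± 0.09 (SE), adjusted p = 6.7e-10). TBX3, a T-box factor of mammary development, had 0.793, 0.817 and 0.675 kb in MDA-MB-231 and 6.40, 6.65 and 6.82 kb in PC3 (log2 difference 2.499 ± 0.15 (SE), adjusted p = 3.7e-10). PGR, the progesterone receptor, had 0 kb in the 3 MDA-MB-231 lists and 1.82, 2.15 and 1.84 kb in PC3 (adjusted p = 4.5e-07). GATA3, a luminal transcription factor, was higher in MDA-MB-231 (log2 difference -0.46, adjusted p = 0.0015), but over the gene body without flanks the difference was 0.022. MUC1, a luminal mucin, had 6.95, 6.49 and 7.16 kb in MDA-MB-231 and 3.16, 2.66 and 3.81 kb in PC3 (adjusted p = 1.8e-07). ERBB2, which encodes HER2, differed by -0.26 (adjusted p = 0.011) and lost its call with median-of-ratios scaling (adjusted p = 0.78), and ELF5, an alveolar factor, was higher in PC3 by 0.73 (adjusted p = 5.4e-05). With 50000 peaks per list ELF5 and GATA3 lost their calls (adjusted p = 0.19 and 0.56).

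Of 25 basal and myoepithelial genes tested, 10 were higher in PC3 (40.0%) and 9 higher in MDA-MB-231 (36.0%), against 21.0% and 44.2% of all genes. Under median-of-ratios scaling 11 and 3 were, against 30.2% and 29.3%. The type II keratin genes KRT6B, KRT6A and KRT5 were covered in PC3 and not in MDA-MB-231. KRT6B had 0 kb in the 3 MDA-MB-231 lists and 4.36, 4.51 and 4.45 kb in PC3 (adjusted p = 9.8e-12), and KRT6A had 0 kb in the 3 MDA-MB-231 lists and 2.35, 2.47 and 2.52 kb in PC3 (adjusted p = 5.1e-10); the genes lie beside each other. KRT5, a basal keratin, had 0 kb in the 3 MDA-MB-231 lists and 1.13, 1.03 and 0.765 kb in PC3 (adjusted p = 2.4e-05). TP63, the basal factor p63, had 2.16, 3.94 and 3.50 kb in MDA-MB-231 and 8.49, 10.0 and 10.1 kb in PC3 (log2 difference 1.47 ± 0.18 (SE), adjusted p = 1.3e-06). Its listed start nevertheless had a peak in all 3 MDA-MB-231 lists and none of PC3, and in 6 treated MDA-MB-231 and 0 treated PC3 lists.

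HOX genes had the highest median of the 20 lists. Of 39 genes 38 were tested, and 28 were higher in PC3, 5 higher in MDA-MB-231 and 5 passed no test, against 21.0% and 44.2% of all genes. Median-of-ratios scaling gave 29 and 3 (30.2% and 29.3% of all genes), and the 50000 highest-area peaks gave 22 and 4 (17.8% and 30.1% of all genes). The list's median was 0.99 in the untreated lists, 0.96 at day 1 and 0.80 at day 10, each over PC3 minus MDA-MB-231 lists of that time. Of the 20 with a listed start, 7 were PC3-only, 2 were MDA-MB-231-only, 2 were open in all 6 lists and 9 had no start peak in any of them. Over all genes with a listed start these shares were 2.22%, 3.12%, 59.0% and 31.3%.

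The 4 clusters differed from each other. Over the whole HOXA cluster with 10 kb flanks (chr7:27082993-27210091), 4.19, 5.18 and 4.99 kb were covered in MDA-MB-231 and 27.8, 24.7 and 29.6 kb in PC3, 5.72 times as much on average. All 11 HOXA genes were higher in PC3. The HOXB cluster had 10.6, 12.0 and 12.3 kb in MDA-MB-231 and 30.7, 30.1 and 32.5 kb in PC3, with 9 of 10 genes higher in PC3. The HOXC cluster had 9.86, 10.8 and 10.9 kb in MDA-MB-231 and 15.3, 15.0 and 16.1 kb in PC3, with 6 of 9 higher in PC3 and 1 higher in MDA-MB-231. The HOXD cluster went the other way, with 8.12, 7.23 and 6.58 kb in MDA-MB-231 and 3.65, 3.66 and 4.04 kb in PC3; 4 of its 8 tested genes were higher in MDA-MB-231 and 2 in PC3. No cluster's lists overlapped between the lines.

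Single HOX genes show the contrast within clusters. HOXA11 had 0.356, 0.667 and 0.608 kb in MDA-MB-231 and 8.59, 8.32 and 9.71 kb in PC3 (log2 difference 3.18 ± 0.19 (SE), adjusted p = 3e-10), and HOXA10 had 1.20, 1.57 and 1.43 kb in MDA-MB-231 and 11.4, 10.1 and 12.4 kb in PC3 (log2 difference 2.64 ± 0.18 (SE), adjusted p = 1e-09). HOXA9 had 0.843, 0.995 and 1.11 kb in MDA-MB-231 and 7.73, 7.06 and 7.51 kb in PC3 (log2 difference 2.42 ± 0.16 (SE), adjusted p = 6e-10). HOXA11 and HOXA9 had PC3-only starts, whereas a start of HOXA10 was open in all 6 lists. HOXA2 and HOXC13, at the opposite ends of their clusters, had 0 kb in all 3 MDA-MB-231 lists, with 4.37, 2.86 and 3.67 kb and 2.92, 3.03 and 2.39 kb in PC3. HOXD1 had 3.17, 2.88 and 2.58 kb in MDA-MB-231 and 0 kb in the 3 PC3 lists (adjusted p = 2.8e-13), with an MDA-MB-231-only start. HOXD3 and HOXD4 share their covered bases and each had 2.01, 1.75 and 1.62 kb in MDA-MB-231 and 0 kb in the 3 PC3 lists (adjusted p = 1.5e-08).

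Gut and liver genes were more often higher in PC3 than in MDA-MB-231. Of 26 genes 19 were tested, with 11 higher in PC3 (57.9%) and 5 higher in MDA-MB-231 (26.3%), against 21.0% and 44.2% of all genes, and a median of 0.45. The counts were equal under median-of-ratios scaling, where 30.2% and 29.3% of all genes were called. HNF4G, a nuclear receptor of the gut, had 2.70, 1.97 and 1.63 kb in MDA-MB-231 and 7.77, 8.47 and 8.23 kb in PC3 (log2 difference 1.75 ± 0.14 (SE), adjusted p = 1.3e-08). SPINK1, a secreted protease inhibitor, had 0.226, 0 and 0 kb in MDA-MB-231 and 1.42, 1.74 and 1.59 kb in PC3 (log2 difference 1.88 ± 0.15 (SE), adjusted p = 1.2e-08). FGA, the fibrinogen alpha chain, had 0 kb in the 3 MDA-MB-231 lists and 1.01, 1.14 and 1.04 kb in PC3 (adjusted p = 1.7e-08), and it had too little covered length to be tested with 50000 peaks per list. Liver factors were split. ONECUT1, FOXA3 and FOXA2 were higher in MDA-MB-231, with log2 differences of -1.60, -1.21 and -0.98 (adjusted p = 7.2e-07, 1e-07 and 4.65e-07), and ONECUT1 had an MDA-MB-231-only start. ONECUT2 and HNF4A were higher in PC3, with log2 differences of 1.41 and 0.53 (adjusted p = 4.4e-08 and 0.00016).

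Secreted inflammatory genes were divided. Of 26 genes 25 were tested, with 10 higher in PC3 (40.0%) and 8 higher in MDA-MB-231 (32.0%), against 21.0% and 44.2% of all genes, or 11 and 7 with median-of-ratios scaling, against 30.2% and 29.3%. The neighbouring collagenase and stromelysin genes MMP10, MMP3 and MMP1 were higher in PC3, and MMP10 had 0.302, 0 and 0.224 kb in MDA-MB-231 and 4.32, 4.35 and 4.39 kb in PC3 (log2 difference 2.87 ± 0.13 (SE), adjusted p = 5.9e-12). PLAU, the urokinase protease, had 9.30, 8.37 and 9.06 kb in MDA-MB-231 and 17.7, 17.3 and 18.5 kb in PC3 (log2 difference 0.96 ± 0.07 (SE), adjusted p = 5e-09). CSF3, a granulocyte growth factor, was higher in MDA-MB-231 (log2 difference -1.06, adjusted p = 2.5e-09).

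Interferon-stimulated genes were mainly higher in MDA-MB-231. Of 30 genes 27 were tested, with 16 higher in MDA-MB-231 (59.3%), 2 higher in PC3 (7.41%) and 9 passing no test, against 44.2% and 21.0% of all genes. Median-of-ratios scaling gave 13 higher in MDA-MB-231 and 6 in PC3, against 29.3% and 30.2%, and the median on the first scale was -0.46 against -0.20 for all genes. IFITM3, a membrane protein that blocks viral entry, had 4.41, 4.11 and 4.00 kb in MDA-MB-231 and 0.752, 1.02 and 0.810 kb in PC3 (log2 difference -1.78 ± 0.13 (SE), adjusted p = 2.1e-09). BST2 had 4.01, 4.26 and 4.59 kb in MDA-MB-231 and 1.07, 0.688 and 1.49 kb in PC3 (log2 difference -1.63 ± 0.17 (SE), adjusted p = 2.3e-07), and XAF1 had 3.86, 3.17 and 3.61 kb in MDA-MB-231 and 1.00, 0.668 and 1.44 kb in PC3 (log2 difference -1.42 ± 0.14 (SE), adjusted p = 1.3e-07). IFITM1 and IFITM2, the neighbours of IFITM3, differed by -1.37 and -1.36 and share part of its window. IFI35, an interferon-induced leucine zipper protein, differed by -0.91 (adjusted p = 2.1e-08). The lists did not overlap at any of these genes. The genes of the IFITM locus lie on 11p, whose median gene differed by -0.55, and centring the arm moved IFITM3 to -1.05.

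Among the AP-1, TEAD and target genes 15 of 22 were higher in MDA-MB-231 (68.2%) and 3 in PC3 (13.6%), against 44.2% and 21.0% of all genes, with a median of -0.50. That balance rests on the scaling: the counts became 12 and 7 under median-of-ratios scaling (29.3% and 30.2% of all genes), while centring each chromosome arm on its median gave 10 and 8 (28.8% and 30.0% of all genes), where the list's median was -0.06. ANKRD1, a target of YAP and TEAD, had 5.00, 5.64 and 5.44 kb in MDA-MB-231 and 1.89, 2.19 and 2.01 kb in PC3 (log2 difference -1.21 ± 0.10 (SE), adjusted p = 7.9e-09). TEAD4 and TEAD3, which encode TEAD factors, differed by -0.86 and -0.95 (adjusted p = 1.05e-08 and 7.4e-06). AMOTL1, an angiomotin that binds YAP, was higher in PC3, at 14.0, 15.6 and 13.512 kb in MDA-MB-231 and 23.2, 25.7 and 24.8 kb in PC3 (log2 difference 0.75 ± 0.07 (SE), adjusted p = 3.1e-08). Of 20 ETS and RUNX factors 14 were higher in MDA-MB-231 (70.0%) and 3 in PC3 (15.0%), against 44.2% and 21.0% of all genes, with a median of -0.42. The counts became 9 and 4 under median-of-ratios scaling, and centring the arms gave 10 and 2. FLI1 had 14.3, 14.2 and 13.3 kb in MDA-MB-231 and 3.52, 2.80 and 3.52 kb in PC3 (log2 difference -1.94 ± 0.09 (SE), adjusted p = 1.7e-11), and its close relative ERG had 0.364, 0 and 0 kb in MDA-MB-231 and 3.97, 4.09 and 3.77 kb in PC3 (log2 difference 2.89 ± 0.35 (SE), adjusted p = 1.4e-06). This pair of paralogous ETS factors thus differed in opposite directions, and both did so under all 3 scalings.

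The other lists had medians between -0.35 and 0.27. Neuronal and neuroendocrine genes numbered 21 tested, with 8 higher in PC3 and 5 higher in MDA-MB-231, against 21.0% and 44.2% of all genes in this and the following lists. CNTNAP2, a neurexin-family adhesion protein, had 2.77, 1.98 and 2.57 kb in MDA-MB-231 and 18.8, 19.7 and 18.8 kb in PC3 (log2 difference 2.75 ± 0.16 (SE), adjusted p = 2.1e-10), while ENO2, the neuronal enolase, was higher in MDA-MB-231 (log2 difference -1.02, adjusted p = 1.8e-08). Bone metastasis genes gave 7 and 6 of 19, among them PTHLH, the parathyroid hormone-like factor, with 2.81, 3.19 and 3.20 kb in MDA-MB-231 and 8.37, 9.23 and 9.91 kb in PC3 (log2 difference 1.44 ± 0.09 (SE), adjusted p = 6.7e-10). Of 17 housekeeping genes tested, 2 were higher in PC3 and 13 in MDA-MB-231, with a median of -0.35. Median-of-ratios scaling gave 2 and 6, against 30.2% and 29.3% of all genes. With arms centred 1 and 12 were called, against 30.0% and 28.8% of all genes. Most housekeeping genes thus lay below 0 on the first scale, as the median gene did. The list's median stayed below 0 with median-of-ratios scaling (-0.16) and with arms centred (-0.23). PPIA, the prolyl isomerase cyclophilin A, was higher in PC3, with 3.25, 3.90 and 4.19 kb in MDA-MB-231 and 7.18, 7.92 and 7.52 kb in PC3 (log2 difference 0.92 ± 0.11 (SE), adjusted p = 8e-07). Fibroblast and smooth muscle genes gave 6 and 4 of 14, melanocyte genes 3 and 3 of 11, and cancer-testis genes 1 and 0 of 6. In the melanocyte list EDNRB, an endothelin receptor, had 2.89, 3.33 and 3.25 kb in MDA-MB-231 and 0 kb in the 3 PC3 lists (adjusted p = 6.7e-12).

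Markers of blood and vessel cells, which neither line should contain, had covered length in both lines. Of 18 haematopoietic genes tested, 5 were higher in PC3 (27.8%) and 6 in MDA-MB-231 (33.3%), and of 16 endothelial genes 3 (18.8%) and 5 (31.2%), against 21.0% and 44.2% of all genes. PTPRC, the pan-leukocyte phosphatase CD45, had 0 kb in all 3 MDA-MB-231 lists and 0.36, 0.42 and 0.36 kb in PC3, under the limit for testing. The T-cell gene CD3E differed by 0.44 (adjusted p = 0.00079) and the myeloid factor SPI1 by -1.39 (adjusted p = 1.5e-05). Of the endothelial markers, CDH5 passed no test (adjusted p = 0.62; 0.0016 with median-of-ratios scaling), and TIE1 and PECAM1 were higher in PC3 by 0.92 and 0.81 (adjusted p = 0.001 and 9.95e-08), although TIE1 turned to -0.42 over the gene body without flanks. ERG, described above, was the third endothelial gene higher in PC3. The 5 higher in MDA-MB-231 were EGFL7, ESAM, SOX18, PLVAP and VWF, with log2 differences of -4.83, -1.19, -1.17, -0.75 and -0.43. With arms centred PLVAP and VWF lost their calls (adjusted p = 0.14 and 0.66), and SOX18 lost its call over the gene body without flanks (adjusted p = 0.091).

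The 20 genes with the largest differences were mostly genes inside long stretches that had no peak in any untreated list of 1 line. All 10 on the PC3 side lay wholly or partly in such a stretch of MDA-MB-231, and 8 of the 10 on the other side in such a stretch of PC3. Genes and stretches were picked from the same 6 lists, so this overlap follows largely from the choice and gives no separate support. The share of all tested genes that meet such a stretch was not counted. MACROD2, an ADP-ribosyl hydrolase gene, had 0.524, 0.507 and 0.466 kb in MDA-MB-231 and 49.3, 58.8 and 50.2 kb in PC3 (log2 difference 5.73 ± 0.17 (SE), adjusted p = 2.4e-14). ADGRL3, AGBL4 and IL1RAPL2 followed, then CDH12, SFMBT2, GRM7, L3MBTL4, FGF13 and NKAIN3; ADGRL3 (latrophilin 3) had 0.688, 0 and 0 kb in MDA-MB-231 and 19.3, 21.6 and 20.1 kb in PC3 (log2 difference 4.96 ± 0.26 (SE), adjusted p = 4e-11). CDH12, a cadherin of neurons, had 0 kb in the 3 MDA-MB-231 lists and 8.26, 9.05 and 8.48 kb in PC3 (adjusted p = 8.2e-13). Genes higher in PC3 were long, with a median length of 52.3 kb, against 24.1 kb for genes higher in MDA-MB-231 and 29.1 kb for all tested.

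On the MDA-MB-231 side the list began with GFRA1, a receptor of the glial-derived growth factor family, at 11.8, 17.8 and 17.5 kb in MDA-MB-231 and 0 kb in the 3 PC3 lists (adjusted p = 2.8e-11). TMEM132D, TSPAN14, EGFL7, ATRNL1, CDH4, STAT3, IFITM10, STAT5B and CAVIN1 followed. TSPAN14, a tetraspanin, had 14.2, 15.0 and 12.7 kb in MDA-MB-231 and 0 kb in the 3 PC3 lists (adjusted p = 4.7e-17). EGFL7 and IFITM10 were the 2 outside such a stretch: EGFL7 had 17.1, 15.9 and 16.8 kb in MDA-MB-231 and 0.356, 0 and 0 kb in PC3 (log2 difference -4.83 ± 0.32 (SE), adjusted p = 7.9e-10). Its range in the treated lists was 0 to 1.05 kb in the 6 treated PC3 lists and 8.42 to 11.6 kb in the 6 treated MDA-MB-231 lists.

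Stretches were counted where no control list of 1 line had a peak while at least 15 regions were present in all 3 control lists of the other. MDA-MB-231 had 126 of these, 146 Mb in all with a median length of 890 kb, and PC3 had 8, of 6.34 Mb in all and a median of 725 kb. Both counts come from the full lists, which gave 31276 PC3-only and 15058 MDA-MB-231-only regions. With the number of peaks per list set equal, there were 12390 and 12354 such regions. Stretches were not counted with equal peak numbers, so the balance of 126 against 8 is not read as a difference between the lines. In 74 of the 126 and 3 of the 8 no protein-coding gene lay wholly inside. The treated lists held a median of 5 peaks per stretch and list in the line that lacked them, against 32 (MDA-MB-231 stretches) and 43 (PC3 stretches) in the other line. In a peak list, DNA that is absent and DNA that is closed cannot be told apart, and the presence of the DNA was not tested.

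Some stretches stayed nearly empty in the treated lists as well. The MDA-MB-231 stretch that faced the most PC3 regions was at chr9:20756037-24912877 (hg38, 4157 kb), with 102 regions in all 3 PC3 lists. The PC3 lists held 120, 132 and 117 peaks there and the MDA-MB-231 lists 0. Of the 6 treated MDA-MB-231 lists, 2 had 1 peak and 4 had 0, while the treated PC3 lists had 104 to 169. It holds 24 protein-coding genes, among them the type I interferon cluster and the tumour suppressors CDKN2A and CDKN2B. A second MDA-MB-231 stretch, at chr18:70422512-74082532 around the neuronal genes CBLN2 and NETO1, had 87, 82 and 80 PC3 peaks and 0 to 5 in treated MDA-MB-231 lists.

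In PC3 the stretch at chr17:42101846-42518568 (417 kb) had no peak in any of the 9 PC3 lists, treated ones included. The MDA-MB-231 control lists held 59, 42 and 46 peaks in it, and the treated ones 51 to 74. It contains 10 genes, among them STAT3, STAT5A and STAT5B, transcription factors of cytokine signalling, and CAVIN1, a caveolar coat protein. STAT3 had 10.2, 9.32 and 8.68 kb in MDA-MB-231 and 0 kb in the 3 PC3 lists (adjusted p = 1.3e-16). At chr10:80222933-80599488 around TSPAN14, treated PC3 lists had 0 to 3 peaks and treated MDA-MB-231 lists 27 to 42. By contrast, the stretch around GFRA1 and ATRNL1 (chr10:114938697-116538520) held 5 to 12 peaks at day 1 and 20 to 32 at day 10 in PC3, and that around NTF3, a neurotrophin, 5 to 7 and 16 to 23.

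**Figure D4:**
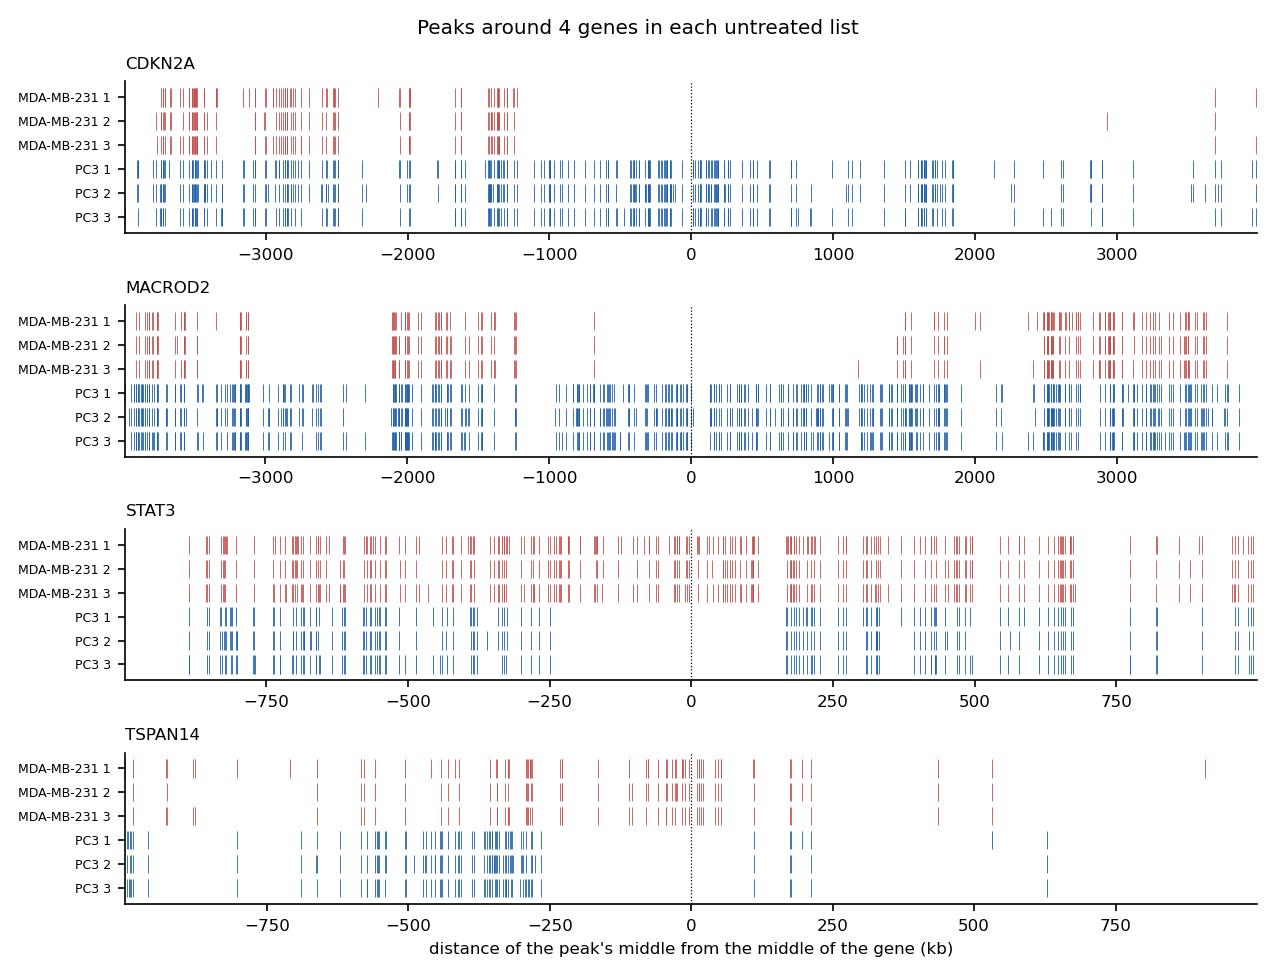
Peaks (ticks, at their middle) in each untreated list of MDA-MB-231 (red) and PC3 (blue) by distance from the middle of CDKN2A, MACROD2, STAT3 and TSPAN14, in kb. MDA-MB-231 lists are empty around CDKN2A and over most of MACROD2, and PC3 lists are empty around STAT3 and TSPAN14.

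Over all protein-coding genes, 2168 of 19974 (10.9%) had no covered base in any list. They include genes that every cell uses, such as B2M, the light chain of class I antigen presentation, and POLR2A, the large subunit of RNA polymerase II, both named after their values were seen. A gene listed at 0 in both lines was therefore not read as closed.

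Tumour suppressor genes were called in shares close to those of all genes, and no direction is read from them. Of 24 genes 22 were tested, with 6 higher in PC3 (27.3%) and 9 higher in MDA-MB-231 (40.9%), against 21.0% and 44.2% of all genes, and a median of -0.22. Median-of-ratios scaling gave 9 and 7, against 30.2% and 29.3% of all genes. CDKN2A, which encodes the cell-cycle inhibitor p16, had 0 kb in the 3 MDA-MB-231 lists and 2.76, 2.41 and 3.23 kb in PC3 (adjusted p = 5.6e-11). CDKN2B and MTAP, its neighbours, had 0 kb in the 3 MDA-MB-231 lists, and all 3 starts were PC3-only, with no peak in any treated MDA-MB-231 list. STK11, the kinase LKB1, had 14.2, 13.0 and 13.2 kb in MDA-MB-231 and 3.70, 2.60 and 4.21 kb in PC3 (log2 difference -1.82 ± 0.13 (SE), adjusted p = 2.6e-09). CTNNA1, alpha-catenin, had 7.65, 9.87 and 9.18 kb in MDA-MB-231 and 2.49, 2.76 and 2.97 kb in PC3 (log2 difference -1.53 ± 0.09 (SE), adjusted p = 1.5e-10). RB1, the retinoblastoma protein, passed no test (adjusted p = 0.65). It was called higher in PC3 with arms centred (0.49, adjusted p = 0.013), and with 50000 peaks per list it differed by -0.50 with no call (adjusted p = 0.20). NF1, a brake on RAS signalling, had no covered base in any list. As background, loss of CDKN2A is known in MDA-MB-231.

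Whole chromosome arms differed as well. Of 41 arms with at least 20 tested genes, 8 had a median above 0 on the log2 scale, led by 8q at 0.45, where 226 of 370 genes were higher in PC3 and 30 in MDA-MB-231. On 8q, 34.0% of regions were PC3-only (2214) and 3.24% MDA-MB-231-only (211), against 20.1% and 9.68% overall. No gene of that chromosome had a listed start, so the counts of line-only starts leave this arm out. The arms 18p, 18q, 3q and 14q followed, with medians of 0.21, 0.18, 0.18 and 0.12. The lowest medians were on 9q, 17p, 11p and 4p, at -0.69, -0.64, -0.55 and -0.54. Regions found only in MDA-MB-231 outnumbered PC3-only ones on 8 of 43 arms, among them 19p (379 against 177), 9q (715 against 478) and 22q (365 against 224).

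The arm of a gene bears on its single value. GRHL2, ESRP1 and HNF4G lie on 8q, and centring each arm on its median moved them from 1.41 to 0.82, from 1.13 to 0.54 and from 1.75 to 1.16. Each kept its direction and its call. Centring all arms gave 5048 genes higher in PC3 (30.0%) and 4842 in MDA-MB-231 (28.8%). HOX genes then gave 29 and 3, prostate genes 12 and 3, and epithelial genes 12 and 4. The balance of the epithelial list thus turned, from 8 higher in PC3 and 12 higher in MDA-MB-231 on the first scale.

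**Figure D5:**
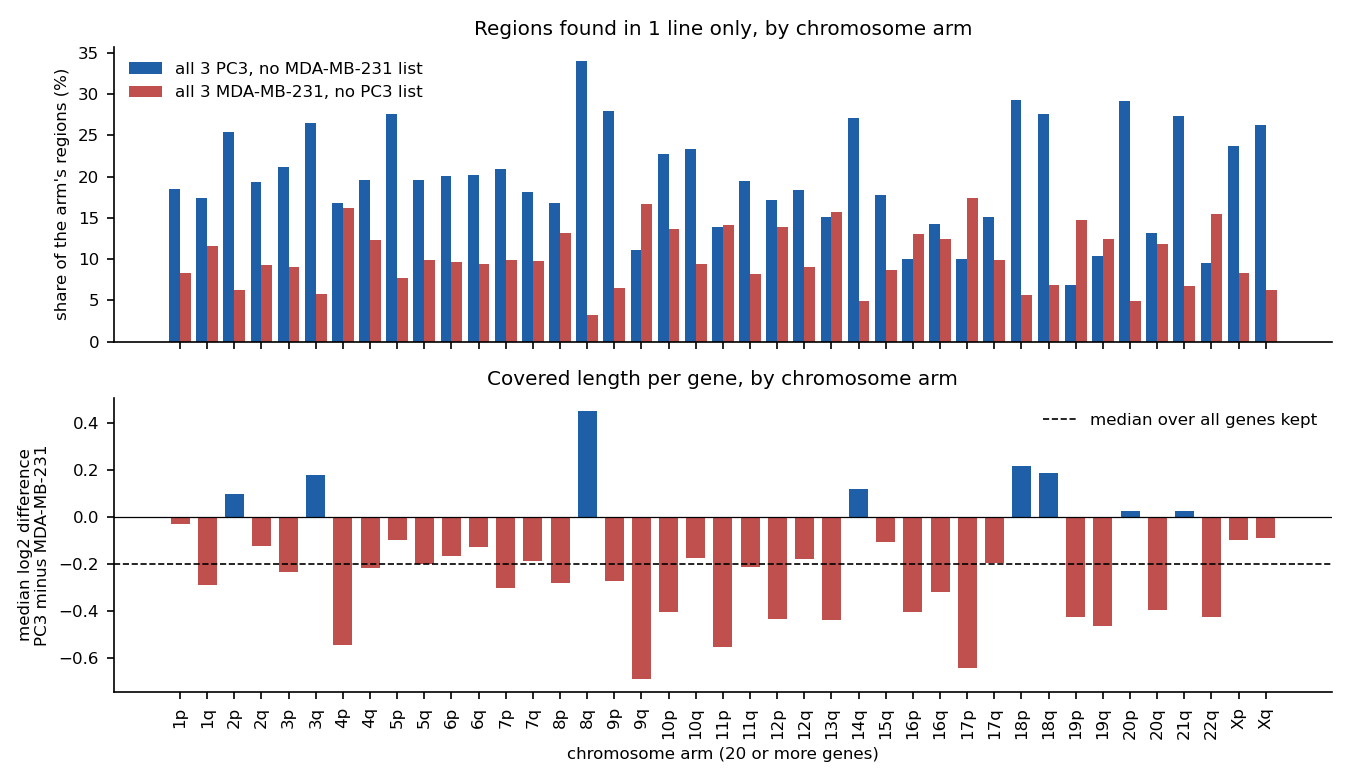
For each chromosome arm with at least 20 tested genes, the share of its merged regions found in all 3 lists of 1 line and no list of the other (upper panel, %) and the median log2 difference of covered length per gene (lower panel, PC3 minus MDA-MB-231; dashed line, median of all genes at -0.20). Arm 8q has the highest PC3-only share, 34.0%, and the highest median, 0.45.

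Base composition and motif letters were described for the start windows of each class. The median GC content was 60.7% in PC3-only starts, 63.7% in MDA-MB-231-only starts, 66.3% in starts open in all 6 lists and 53.3% in starts open in none. GGGCGG, the letters of SP and KLF factors, was present on either strand in 47.9%, 57.8%, 73.8% and 30.8% of these. The AP-1 letters TGANTCA were in 10.8% of PC3-only and 6.16% of MDA-MB-231-only starts, against 6.16% of all starts. The grainyhead letters ACCNGTT were in 9.13% and 4.19%, against 6.01% of all. The forkhead letters TGTTTAC were in 4.26% and 2.59%, against 2.86% of all, and the ETS letters CCGGAA in 9.74% and 14.7%, against 21.1%. These are descriptions of windows of equal length, and base composition differs between the classes.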

How the data were processed

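Each deposited file is a headerless narrowPeak table for 1 biological replicate, and the step that joined its experimental replicates is not given. Genrich 0.6.2, Bowtie2 2.3.5.1, SAMtools 1.6, Picard, FastQC 0.12.1 and R 4.4.1, with builds hg38 and GRCh38, are named per the submitters' processing notes. Column 7 holds the deposited score, read from its values as peak area (lowest 200 in the untreated lists) and used here for ranking inside 1 list. Column 8 holds the deposited −log10 p-value (lowest 2.52). Depth is unknown. Where no label says that replicates came from separate cultures, p-values measure only the spread between lists.

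Regions were peaks of the 6 lists merged where they overlap, and a list had a region with at least 1 bp of overlap. Covered length per gene used a RefSeq table of GRCh38.p14. A gene was kept where 3 or more of the 18 lists covered 500 bp of it. In R 4.3.3, limma 3.58.1 fitted log2(length + 500 bp) over all 18 lists, with 6 groups, a variance trend and Benjamini-Hochberg adjustment at 0.05. Arms were split at hg38 centromere positions entered by hand. On simulated data, the fit was tested with 200 of 16817 genes changed: 44.5%, 91.5% and 100.0% were recovered at log2 changes of 0.5, 1 and 2, and false calls made up 4.30%, 5.18% and 1.48% of calls. The simulation drew independent noise for each gene and raised all changed genes in PC3. Its rates do not cover overlapping windows, the choice of scaling or a large share of changed genes.

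The compared lists, the 20 gene lists (468 entries, all found in the gene table), the motifs and the tests were chosen with earlier results of these data known. Named genes were the 10 largest differences each way with non-overlapping lists, the 6 lowest-p members of a list (any member of the epithelial, mesenchymal, prostate, breast, basal, HOX, gut and liver and tumour suppressor lists), genes at the 10 widest line-only start regions and genes in peak-free stretches; cell type markers were named whatever their values, and B2M and POLR2A after theirs were seen. Replicate numbers did not pair the lists. Alternatives are given in the closing section. Some genes and sequences of distal regions are not reported here.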

Additional observations from a re-analysis of the deposited data

How the results depend on the processing

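The share at gene ends, the intergenic share and the gene-poor share kept their direction under every alternative run (fewer peaks, each list left out), with exact permutation p of 0.1 and no p under 0.05 possible. Peak number did so with each list left out and with the upper 50% by area (exact permutation p of 0.1 or 0.2); with 50000 peaks per list it was equal by construction. The PC3 minus MDA-MB-231 difference in covered length, 1.46 Mb, had no stable sign: it was -6.16 Mb with the 50000 highest-area peaks, -0.612 Mb with the upper 50% by area, and from -3.21 Mb (without MDA-MB-231 list 1) to 5.08 Mb with 1 list left out. The difference in median width ran from -150 to -36.3 bp with 1 list left out. PC3-only regions fell from 31276 to 12390 with the 50000 highest-area peaks and to 15871 with the upper 50%, and MDA-MB-231-only regions from 15058 to 12354 and 8260; fewer peaks entered both. With 1 list left out they ran from 31723 to 36864 and from 15666 to 17908. Genes higher in MDA-MB-231 fell from 7438 to 4801 with the 50000 highest-area peaks, to 4931 with median-of-ratios scaling and to 4842 with arms centred; these scalings set the median gene, or the median of each arm, near 0. With 1 list left out, genes higher in PC3 ran from 3278 to 3428 and in MDA-MB-231 from 6658 to 7232. Deviations of same-numbered lists correlated at 0.03, 0.21 and -0.05, so the numbers were not taken to pair the lists; a replicate block in the fit of the 6 lists gave 3356 and 7333 genes, and, chosen after seeing the data, in that of all 18 lists 3666 and 7612. Of 143 named genes over all alternatives, 4 gene and setting pairs were counted as turned in sign: over the gene body without flanks CDH5 (-0.44), TIE1 (-0.42) and GATA3 (0.022), and with arms centred ZEB1 (0.060). Another 34 pairs lost the call and 26 gained it. The other 2626 kept their call or stayed without one. A turn in sign of a gene called in neither fit, as for RB1 with 50000 peaks per list, was counted among these. Start counts ran from 259 to 394 (PC3-only) and from 460 to 711 (MDA-MB-231-only).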
